A study of Mus musculus with 10 samples.

Results

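The nuclear genes of the mitochondrial respiratory chain and of ATP synthase were followed in splenic B cells of mice with and without a Bcl6 transgene. They were chosen by symbol, as every probe set with exactly 1 gene symbol that begins with Nduf, Uqcr, Atp5, Cox4, Cox5, Cox6, Cox7 or Cox8. The rule took 109 of the 21640 probe sets with 1 symbol, which measure 85 of 19937 genes, and it used no measured value. By function, 39 probe sets (34 genes) measure subunits of complex I, 7 measure its assembly factors Ndufaf1 to Ndufaf7, 11 (8 genes) measure complex III, 20 (17 genes) complex IV and 29 (17 genes) ATP synthase. Ndufa4, named for complex I but now known as a subunit of complex IV, is counted with complex IV. The other 3 probe sets measure Cox7a2l, a factor of supercomplex assembly, and Ndufa4l2, a relative of Ndufa4.

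RNA of B220+CD22+ cells sorted from spleen was hybridised to 10 Affymetrix Mouse Gene 1.0 ST arrays, and all mice had the strain CBAxC57BL/6J. The groups were wild-type (n = 3), Sca1-Bcl6(floxed) (n = 3), here called floxed, and Sca1-Bcl6(delta) (n = 4), here called delta. The floxed mice carry Bcl6 of the mouse with IRES-eGFP, flanked by loxP, in a vector of Ly6a (Sca1), a surface protein of blood stem cells that also marks other cells. The delta mice are floxed mice crossed to mb1-Cre, which expresses Cre from the B lineage gene Cd79a, so they carry a Cre allele that the other groups lack, and no array of mb1-Cre alone was analysed here. The labels mention more than 1 transgenic line but do not give the line, age or sex behind an array, nor say that each array is a separate animal. The p-values therefore measure only the spread between these samples, which may be technical.

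As background, complexes I, III and IV pass electrons from NADH to oxygen and move protons out of the mitochondrial matrix, and ATP synthase makes ATP as protons flow back. Each of these complexes joins subunits encoded in the nucleus, measured here, to a few encoded in mitochondrial DNA. Resting B cells run oxidative phosphorylation at a low rate, and activated B cells raise it together with mitochondrial mass. In bulk RNA, fewer cells that express a gene and less RNA of it per cell cannot be told apart.

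The arrays carried the B cell genes of the sort at a high level. The mean log2 intensity of 9 B cell markers lay between 12.73 and 12.95 on the 10 arrays, and the mean of 10 T cell markers lay between 6.49 and 7.51. The T cell mean was 6.49, 6.82 and 6.72 on the wild-type arrays, 7.51, 6.72 and 7.28 on the floxed arrays and 6.55, 6.51, 6.61 and 6.91 on the delta arrays. Other marker lists also stood higher in floxed cells: the median floxed minus wild-type difference was 0.43 for 10 T cell, 0.27 for 8 NK cell, 0.27 for 9 myeloid and 0.56 for 7 erythroid markers. Of these, 3, 1, 3 and 4 in turn lay higher in floxed cells without overlap, beside 7.8% of all probe sets. Between delta and floxed the medians were -0.47, -0.35, -0.20 and -0.33 in the same order, and 0 of these markers were called in limma in either comparison. At an unadjusted p under 0.05 were 6, 3, 4 and 4 between floxed and wild-type, beside 12.8% of all probe sets. Between delta and floxed they were 6, 5, 2 and 4, beside 6.32%. Of 5 plasma cell markers, Jchain was called higher in floxed than in wild-type cells, by 1.64 (adjusted p = 0.00478), and Sdc1 was called lower. The part of these cells in the results was not tested, except by fits in which the T cell mean served as covariate. Genes of the Y chromosome and Xist gave a male pattern on 0 of 3 wild-type, 3 of 3 floxed and 1 of 4 delta arrays, so the sex pattern and the floxed group cannot be told apart against wild-type. Bcl6 itself does not check the labels: its log2 level was 10.05 ± 0.38 (SD, n = 3) in wild-type, 9.88 ± 0.08 (n = 3) in floxed and 9.70 ± 0.14 (n = 4) in delta cells. Cd79a, the gene that holds Cre, was 13.35 ± 0.05 in wild-type and 12.87 ± 0.03 in delta cells, without overlap (adjusted p = 0.0513, limma).

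None of the 109 probe sets passed the test in any of the 3 comparisons. In limma with Benjamini-Hochberg adjustment over 21640 probe sets at 0.05, 0 of 109 were called between floxed and wild-type, where 0.652% of all probe sets were called. The count was also 0 between delta and wild-type (background 0%) and between delta and floxed (background 0.00462%). At an unadjusted p under 0.05, 6, 7 and 6 of the 109 passed in these comparisons in turn, or 5.5%, 6.42% and 5.5%, beside 12.8%, 8.11% and 6.32% of all probe sets. The comparisons share their arrays in pairs and are not independent of each other. Members did not stand out from the rest by these counts.

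The size of change that the arrays allow was small. The 95% confidence interval of the log2 difference lay within 0.5 of no change for 105, 106 and 108 of the 109 probe sets in the same order of comparisons, and within 1 for all 109 in each. The exceptions at 0.5 were Ndufa9, Atp5e and 1 probe set each of Atp5h and Atp5md between floxed and wild-type, Ndufb6 and the same Atp5h and Atp5md probe sets between delta and wild-type, and Ndufa2 between delta and floxed. The difference between group means was smaller than the wider of both groups' ranges for 105, 108 and 107 of 109 probe sets. These intervals are for single probe sets and say nothing of several moving together by less.

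**Figure D1:**
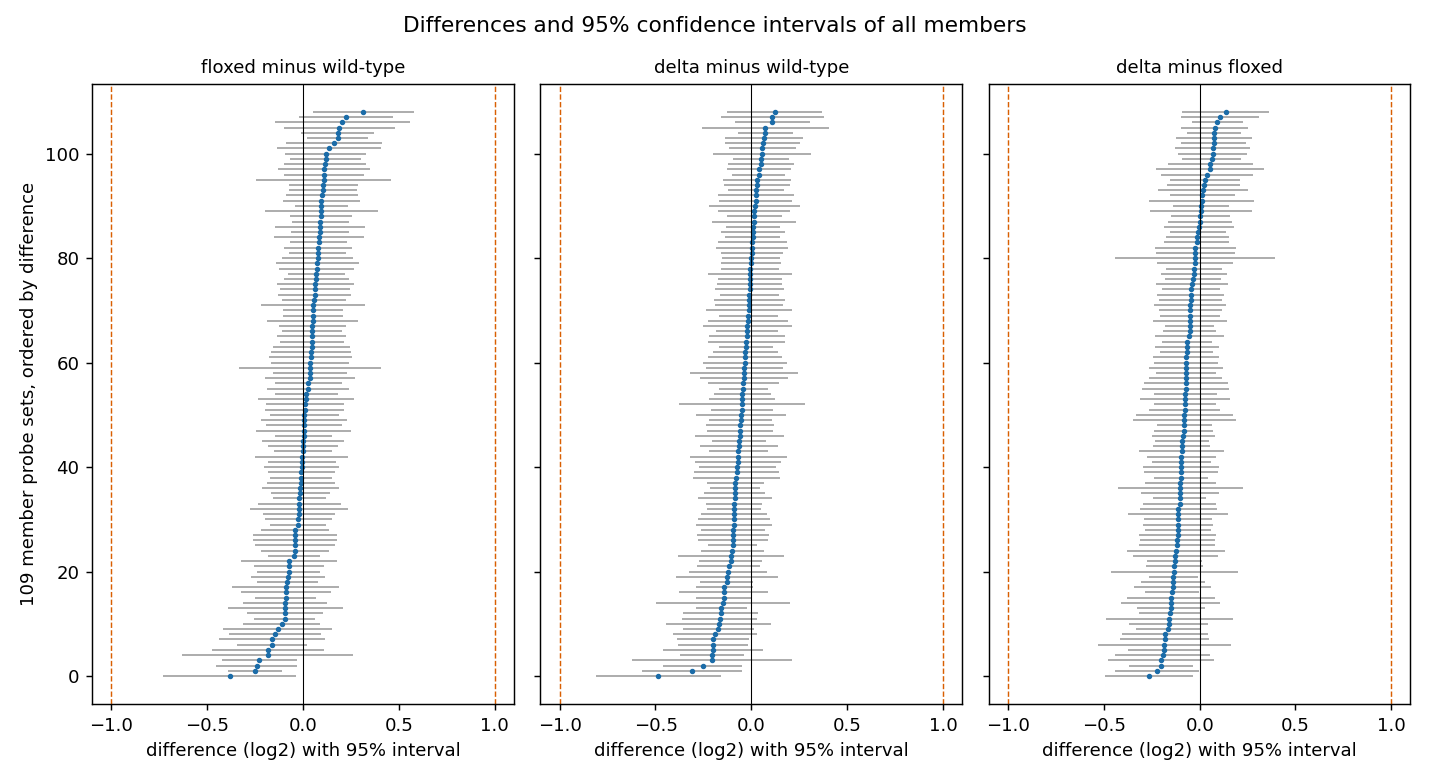
Log2 difference of each of the 109 probe sets, ordered by difference, with its 95% confidence interval from limma, for the 3 comparisons. All intervals stay within 1 of no change, and none of the 109 differences passed an adjusted p of 0.05.

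Complex I, NADH dehydrogenase, is the entry point of electrons from NADH. Its 39 probe sets had a median log2 difference of 0.02 between floxed and wild-type, -0.05 between delta and wild-type and -0.08 between delta and floxed, beside -0.02, -0.01 and 0.00 over all probe sets. The first was -0.02 without wild-type 2 and 0.09 without wild-type 3, and the second was 0.01 without wild-type 3 and -0.10 without wild-type 2. The subunits that bind its flavin and iron-sulfur clusters were near no change. Ndufv1, which binds the flavin and NADH, differed by 0.08 (SE 0.07) between floxed and wild-type and by 0.01 (SE 0.06) between delta and wild-type. Ndufs1, an iron-sulfur subunit, differed by 0.03 (SE 0.08) and -0.05 (SE 0.07) in these comparisons. Ndufs7 and Ndufs8, iron-sulfur subunits near the quinone site, differed by 0.05 and 0.07 between floxed and wild-type and by 0.02 and -0.03 between delta and wild-type.

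Ndufa9, an accessory subunit of the arm that takes up quinone, had the smallest p of complex I between floxed and wild-type. Its log2 levels were 9.40, 9.19 and 9.61 on the wild-type arrays, 9.62, 9.63 and 9.89 on the floxed arrays and 9.35, 9.62, 9.67 and 9.45 on the delta arrays. Every floxed array lay above every wild-type array, with the closest pair at 9.61 and 9.62, and the delta arrays overlapped both. The floxed minus wild-type difference was 0.31 (SE 0.12, 95% CI 0.05 to 0.58, adjusted p = 0.299, limma). With the sex pattern as a covariate it was 0.55 (adjusted p = 0.601). That fit can separate sex from the floxed group only through delta 1, the 1 male delta array, so here and below a value with this covariate rests on that array. On the other side was Ndufa3, an accessory subunit, at -0.18 (SE 0.13) with overlapping groups, and at -0.41 with that covariate.

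Ndufa12, an accessory subunit of the peripheral arm, had no overlap between delta and wild-type. It stood at 8.63, 8.40 and 8.47 in wild-type, 8.26, 8.47 and 8.49 in floxed and 8.23, 8.34, 8.37 and 8.05 in delta cells. All 4 delta arrays were below all 3 wild-type arrays, while the floxed arrays reached into both ranges. The delta minus wild-type difference was -0.25 (SE 0.09, adjusted p = 0.488, limma). Ndufb6, an accessory subunit of the membrane arm, differed by -0.31 (SE 0.12, adjusted p = 0.5), with overlap.

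Between delta and floxed, 4 of the 39 complex I probe sets (10.3%) did not overlap, all with delta lower, beside 3.66% of all probe sets. These were Ndufa6, Ndufa8, Ndufa10 and Ndufb7, accessory subunits, with differences of -0.14, -0.10, -0.07 and -0.14. Ndufb7 was at 9.06, 9.10 and 9.07 on the floxed arrays and 8.85, 8.97, 9.01 and 8.92 on the delta arrays, with wild-type arrays at 9.01, 8.92 and 9.01. The floxed arrays of Ndufb7 thus lay above both other groups, and its delta minus floxed difference had an SE of 0.06 (adjusted p = 0.778, limma) and was -0.23 with the sex pattern as a covariate. In all, 33 of the 39 complex I probe sets (84.6%) had a difference below 0 in this comparison, beside 48.2% of all probe sets.

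The 7 assembly factors of complex I, proteins that help to build the complex but do not stay in it, had medians of -0.02, -0.02 and -0.01 in the 3 comparisons. The widest differences were -0.11 (SE 0.09) for Ndufaf6 between floxed and wild-type and -0.20 (SE 0.12) for Ndufaf1 between delta and wild-type. Ndufaf2 was 0.09 higher in floxed than in wild-type cells (SE 0.11), and Ndufaf4 was 0.02 and 0.04 higher in delta than in wild-type and floxed cells. None of these groups was free of overlap.

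Complex III, the cytochrome bc1 complex, hands electrons from ubiquinol to cytochrome c. Its medians were -0.01, -0.05 and -0.00. Without wild-type 3 the first was 0.04 and the second 0.01, and without delta 4 the third was 0.03. In all, 10 of its 11 probe sets (90.9%) were below 0 between delta and wild-type, beside 56.1% of all probe sets. Its core proteins Uqcrc1 and Uqcrc2 and the Rieske iron-sulfur protein Uqcrfs1 differed by 0.03, 0.05 and -0.07 between floxed and wild-type. Between delta and floxed, Uqcrc2 did not overlap, at -0.09 (SE 0.07).

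Uqcrb, a small subunit that contacts the quinone-binding part of complex III, held the smallest p of all 109 probe sets between floxed and wild-type. Probe set 10410259 read 11.74, 11.62 and 11.75 in wild-type, 11.43, 11.47 and 11.46 in floxed and 11.48, 11.56, 11.63 and 11.50 in delta cells. The floxed arrays lay below all others, and the delta arrays lay between them and wild-type with 1 delta array inside the wild-type range. The floxed minus wild-type difference was -0.25 (SE 0.06, 95% CI -0.39 to -0.11, adjusted p = 0.119, limma). With the sex pattern as a covariate it shrank to -0.17.

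The other probe sets of Uqcrb went the same way between floxed and wild-type. Probe set 10360026 was at 9.17, 9.02 and 8.93 in wild-type and 8.73, 8.83 and 8.88 in floxed cells, a difference of -0.23 (adjusted p = 0.308, limma). Probe set 10412711 was at 10.71, 10.67 and 10.80 against 10.39, 10.64 and 10.67, a difference of -0.16 (adjusted p = 0.443). All 3 had floxed arrays below all wild-type arrays, the last with its closest pair level at 10.67, and their delta minus wild-type differences were -0.16, -0.20 and -0.09. Probe sets of 1 gene can share sequence and are not separate evidence, and whether each reads the gene or a near-identical copy was not tested. Uqcrq and Uqcrh, other small subunits, leaned the opposite way with 0.09 (SE 0.07) and 0.13 (SE 0.12), both overlapping.

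**Figure D2:**
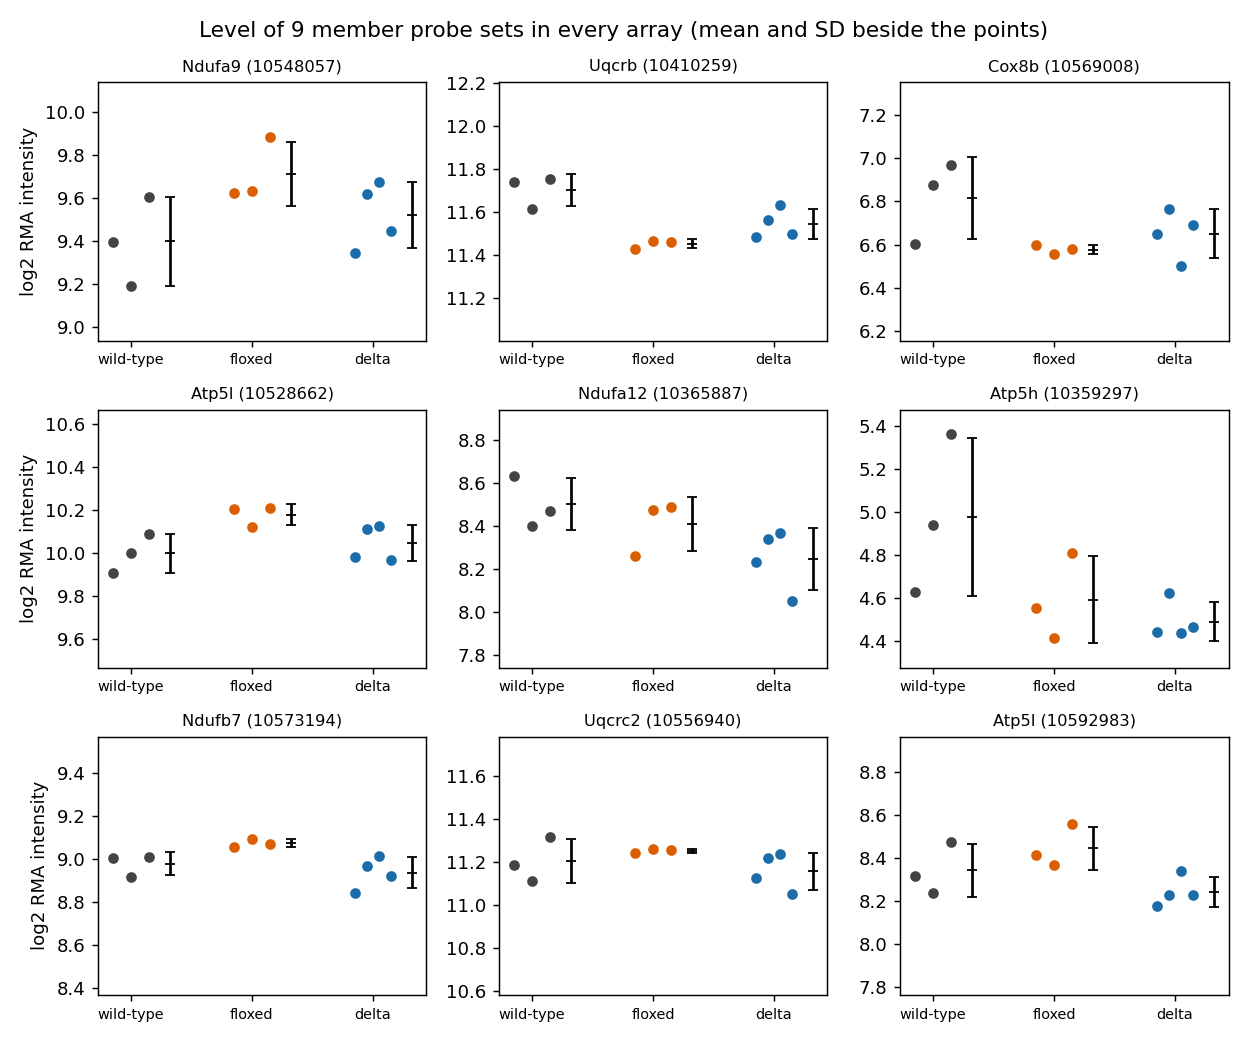
Log2 intensity of named probe sets on each of the 10 arrays, with the mean and SD of each group beside the points, for members named by the smallest p whose groups did not overlap. The 3 floxed arrays of Uqcrb 10410259 sit between 11.43 and 11.47, below the wild-type arrays at 11.62 to 11.75, and no difference in the plot passed an adjusted p of 0.05.

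Complex IV, cytochrome c oxidase, reduces oxygen to water, and several of its subunits come in a common form and in forms typical of muscle, lung, testis or hypoxia. The class medians were 0.05, -0.04 and -0.07, and the first was -0.02 without wild-type 2 and the second -0.00 without wild-type 3. Among the common forms, Cox4i1 was 9.94 ± 0.14 (SD, n = 3) in wild-type, 10.12 ± 0.12 (n = 3) in floxed and 9.97 ± 0.07 (n = 4) in delta cells. Its floxed minus wild-type difference of 0.18 (SE 0.09, adjusted p = 0.414, limma) was the highest of the class, and its delta minus wild-type difference was 0.03. Cox5a, Cox6b1, Cox7a2 and Cox8a differed by 0.07, 0.11, 0.00 and 0.06 between floxed and wild-type and by -0.16, -0.14, -0.15 and -0.07 between delta and floxed.

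Ndufa4 was the complex IV member with the smallest p between delta and wild-type. Its levels were 8.78, 8.73 and 8.88 in wild-type, 8.83, 8.77 and 8.68 in floxed and 8.56, 8.64, 8.73 and 8.45 in delta cells. The highest delta array was level with the lowest wild-type array to 2 decimals, and it lay above the lowest floxed array. The difference was -0.21 from wild-type (SE 0.08, adjusted p = 0.490) and -0.17 from floxed (SE 0.08, adjusted p = 0.790, limma). Cox6a1, the common form of its subunit, followed with -0.17 (SE 0.08) from wild-type.

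None of the tissue forms was called. The 8 probe sets of Cox4i2, Cox6a2, Cox6b2, Cox7a1, Cox7b2, Cox8b, Cox8c and Ndufa4l2 had floxed minus wild-type differences from -0.24 to 0.05 and delta minus wild-type differences from -0.17 to 0.07. Cox8b, the heart and muscle form of subunit 8, read 6.60, 6.88 and 6.97 in wild-type, 6.60, 6.55 and 6.58 in floxed and 6.65, 6.77, 6.50 and 6.69 in delta cells. The 3 floxed arrays lay below wild-type, with the closest pair level at 6.60, and the difference was -0.24 (SE 0.10, adjusted p = 0.324, limma). Cox7b2, a testis form, had a mean log2 of 4.97 over all arrays and was 1 of the 2 probe sets of the 109 below 6.

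ATP synthase had the lowest of the 5 class medians between delta and floxed. Its medians were 0.04 between floxed and wild-type, -0.06 between delta and wild-type and -0.10 between delta and floxed. The first was -0.01 without wild-type 2 and 0.10 without wild-type 3, and the second was -0.13 and -0.00 without these arrays. In the last comparison 28 of the 29 probe sets (96.6%) were below 0, beside 48.2% of all probe sets. An unadjusted p under 0.05 was found for 4 (13.8%, beside 6.32%), namely 1 probe set each of Atp5l, Atp5g2, Atp5g1 and Atp5pb. The catalytic head showed the same small sizes: Atp5a1, Atp5b and Atp5c1, its alpha, beta and gamma subunits, differed by -0.14, -0.05 and -0.13 between delta and floxed (SE 0.08, 0.06 and 0.07). The exception above 0 was probe set 10354739 of Atp5l, at 0.07.

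Atp5l encodes subunit g of the membrane sector and had 5 probe sets. Probe set 10528662 read 9.91, 9.998 and 10.08 in wild-type, 10.20, 10.12 and 10.21 in floxed and 9.98, 10.11, 10.12 and 9.96 in delta cells. The floxed arrays were above all wild-type arrays, by 0.18 in the mean (SE 0.07, adjusted p = 0.320, limma), and overlapped delta. With the sex pattern as a covariate the floxed minus wild-type difference was 0.26. The other 4 differed by 0.04 to 0.10 in this comparison. Probe set 10592983 was 8.41, 8.37 and 8.56 in floxed and 8.18, 8.23, 8.34 and 8.23 in delta cells, a difference of -0.20 without overlap (SE 0.08, adjusted p = 0.750), the smallest p of the 109 between delta and floxed.

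Atp5g1, Atp5g2 and Atp5g3 encode the same mature subunit c of the rotor ring. Atp5g2 probe set 10447566 read 8.93, 8.94 and 8.76 in wild-type, 9.15, 9.08 and 9.07 in floxed and 8.58, 9.07, 8.76 and 8.94 in delta cells. Floxed lay above wild-type without overlap at 0.22 (SE 0.11, adjusted p = 0.437, limma), and the delta minus floxed difference was -0.26 (adjusted p = 0.758), with 1 delta array level with the floxed arrays. Its other probe sets differed by 0.11 and 0.04 between floxed and wild-type. The probe sets of Atp5g1 differed by 0.03 and 0.19, and Atp5g3 by -0.10 (SE 0.07).

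Atp5h, subunit d of the stalk, shows how far probe sets of a gene can part. Probe set 10359297, the dimmest of the 109, read 4.63, 4.94 and 5.36 in wild-type, 4.56, 4.41 and 4.81 in floxed and 4.44, 4.63, 4.44 and 4.47 in delta cells. The delta arrays lay below wild-type, with the closest pair level at 4.63, and the difference of -0.48 (SE 0.15, adjusted p = 0.356, limma) was the widest of the 109 in that comparison. Its brighter probe sets 10392930 and 10542520 differed by 0.00 and -0.03 (SE 0.09 and 0.08). Of the 17 genes with several probe sets, 13, 11 and 14 had all of theirs on 1 side of no change in the 3 comparisons.

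Counted over arrays rather than means, few members were free of overlap. Between floxed and wild-type, 4 of 109 (3.67%) lay higher and 4 (3.67%) lower, beside 7.8% and 8.97% of all probe sets. Between delta and wild-type, 0 lay higher and 3 (2.75%) lower, beside 4.01% and 5.45%. Between delta and floxed, 1 (0.917%) lay higher and 6 (5.5%) lower, beside 3.26% and 3.66%. Only the last share was above its background, and 6 probe sets of members that are not independent do not set the list apart. The floxed arrays were also closer together for members, with a median SD of 0.08 beside 0.10 for all probe sets.

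The sign of the differences was less even than their size. Between delta and floxed, 87 of 109 probe sets (79.8%) were below 0, with a median of -0.07, beside 48.2% and 0.00 for all probe sets. Between delta and wild-type the count was 81 (74.3%), with a median of -0.05, beside 56.1% and -0.01. Between floxed and wild-type it was 45 (41.3%), with a median of 0.02, beside 57.5% and -0.02. These are descriptions of a list whose members are not independent of each other, and no test of the list was made. The sex pattern also differed between delta and floxed, with 1 of 4 and 3 of 3 arrays male. With it as a covariate the delta minus floxed median was -0.12, a value that rests on delta 1. The delta minus floxed median lay below 0 under each of the 22 alternatives tried, from -0.12 to -0.05. Several of these could not move it. The eBayes options, adjustment over every probe set, a fit of delta and floxed alone and the omission of a wild-type array left it at -0.07. The replicate block gave the same median as the omission of delta 4, which is alone in its block. The delta minus wild-type median was 0.00 without the third wild-type array. The floxed minus wild-type median was -0.02 without the second wild-type array and 0.08 without the third.

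**Figure D3:**
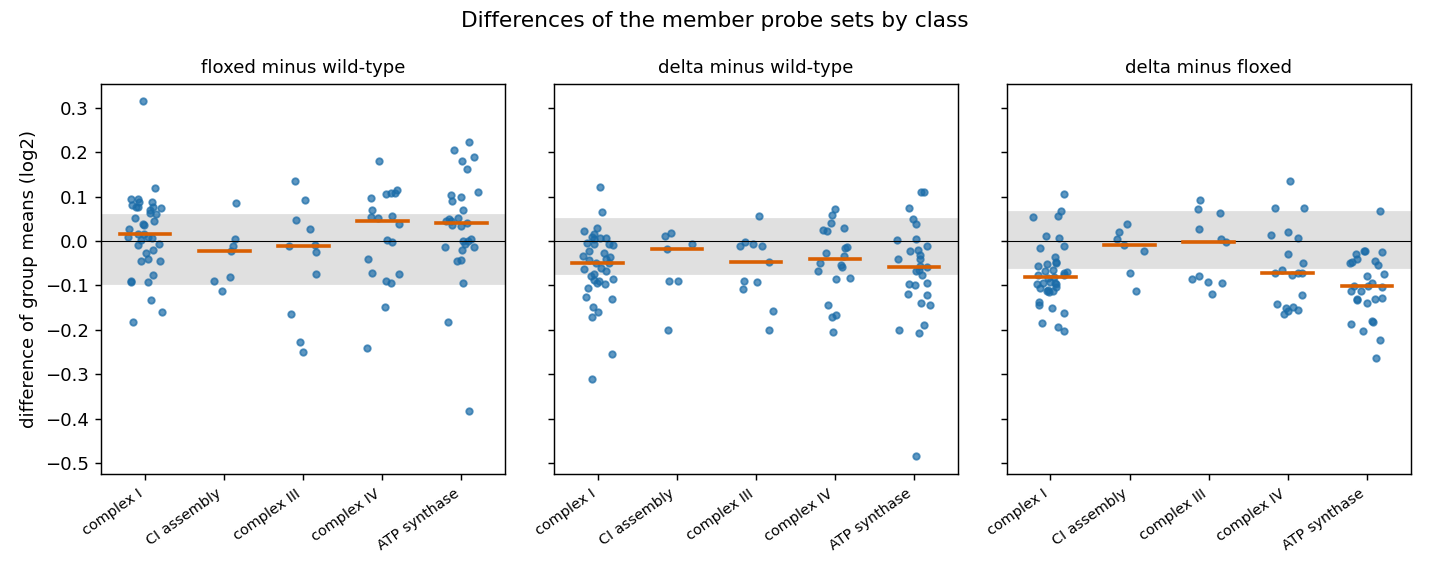
Log2 differences of all probe sets of each class in the 3 comparisons, with the class median as a line and the middle 50% of all probe sets as a grey band. Between delta and floxed, 28 of 29 ATP synthase and 33 of 39 complex I probe sets fall below 0, beside 48.2% of all probe sets. The medians of these classes are -0.10 and -0.08.

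The complexes shared an order of arrays within the wild-type group and, except for ATP synthase, within the delta group, but not within the floxed group. ATP synthase was at 9.67 on delta 1 and 9.69 on delta 4, while the other classes were lowest on delta 4. The assembly factors of complex I were highest on wild-type 1 (8.09), with wild-type 3 at 8.08. The mean log2 over the 109 probe sets was 9.40, 9.31 and 9.50 on the wild-type arrays, 9.42, 9.42 and 9.41 on the floxed arrays and 9.30, 9.38, 9.43 and 9.28 on the delta arrays. Wild-type and delta arrays thus spread over 0.198 and 0.149 and floxed arrays over 0.00794, and the group means were 9.40 ± 0.10 (SD, n = 3), 9.41 ± 0.005 (n = 3) and 9.35 ± 0.07 (n = 4). The close floxed means hide classes that differed in opposite directions. On floxed 1, 2 and 3 the mean was 9.39, 9.42 and 9.45 for complex I, 7.93, 7.998 and 8.09 for its assembly factors, 9.36, 9.28 and 9.21 for complex IV and 9.86, 9.85 and 9.81 for ATP synthase. Floxed 1 was the lowest floxed array in 18 of 39 complex I probe sets and the highest in 12 of 20 of complex IV, and floxed 3 was the lowest in 14 of 20 of complex IV. The difference between delta and floxed means was smaller than the range of the delta arrays.

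**Figure D4:**
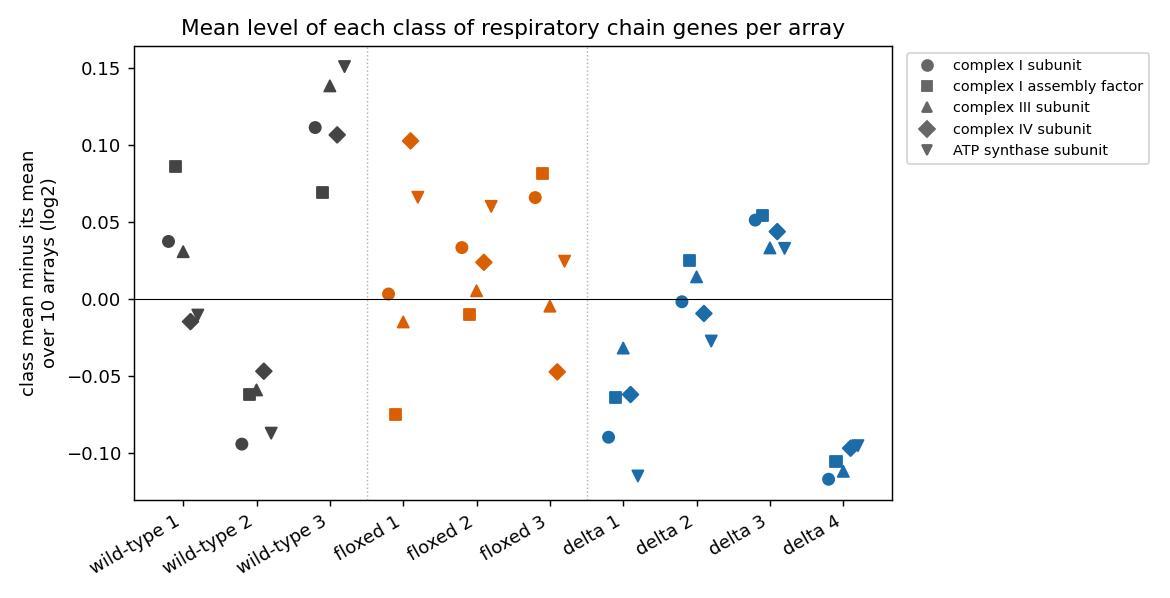
Mean log2 intensity of each class on each array, as a difference from its mean over all 10 arrays. Wild-type 3 stands highest and wild-type 2 lowest of the wild-type arrays for complex I, complex III, complex IV and ATP synthase, and delta 3 stands highest of the delta arrays in all 5 classes. On the floxed arrays complex I and its assembly factors are highest on floxed 3, and complex IV and ATP synthase are highest on floxed 1.

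The order of the wild-type and delta arrays ran through most members. Wild-type 2 was the lowest wild-type array in 77 of 109 probe sets (70.6%), beside 35.1% of all probe sets, and wild-type 3 the highest in 84 (77.1%), beside 40.9%. Delta 4 was the lowest delta array in 57 (52.3%), beside 23.5%, and delta 3 the highest in 66 (60.6%), beside 25.1%. By complex, wild-type 2 was lowest in 33 of 39 complex I, 8 of 11 complex III, 12 of 20 complex IV and 18 of 29 ATP synthase probe sets. The median SD between wild-type arrays was 0.12 for the members and 0.09 for all probe sets, while between floxed arrays it was 0.08 and 0.10. The means of other markers did not follow 1 order. Among wild-type arrays the T cell mean was highest on wild-type 2 (6.82), and the NK cell, myeloid and erythroid means on wild-type 3 (5.91, 6.62 and 7.71). The T cell, NK cell, myeloid and erythroid means of the delta arrays were each highest on delta 4, at 6.91, 5.98, 7.20 and 7.79. On delta 1, where the member mean was 9.30, they were 6.55, 5.79, 6.72 and 7.14. The part of these markers in the ordering was not tested.

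**Figure D5:**
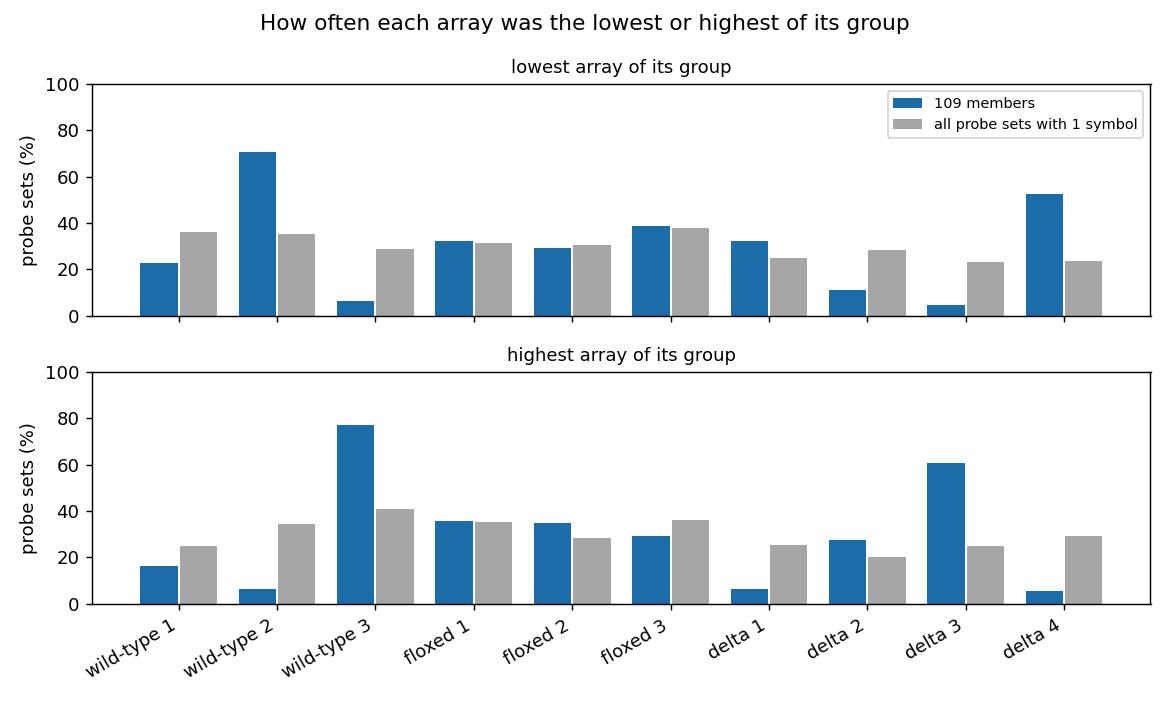
Share of probe sets for which each array was the lowest or the highest of its group, for the 109 members and for all 21640 probe sets. Wild-type 3 was the highest wild-type array for 77.1% of the members and 40.9% of all probe sets.

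The members on the X chromosome were looked at apart, since the sex pattern differed between groups. Ndufa1, a small membrane subunit of complex I needed for its assembly, differed by 0.10 between floxed and wild-type, -0.11 between delta and wild-type and -0.20 between delta and floxed (SE 0.13 in each). The 2 probe sets of Ndufb11, another membrane subunit, differed by 0.02 and 0.06 between floxed and wild-type, and those of Cox7b, a complex IV subunit, by 0.11 and 0.04. Each of these 5 probe sets had overlapping groups in these comparisons.

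Other genes of the same machinery gave few calls. Of the subunits encoded in mitochondrial DNA, only ND3 of complex I and COX2 of complex IV were measured by a probe set with 1 symbol. They differed by 0.08 and 0.04 between floxed and wild-type. A list of 11 further electron carriers held complex II, cytochrome c, the electron transfer flavoproteins with Etfdh, and also Dhodh, Gpd2 and Cyc1. Cyc1 is a subunit of complex III that the symbol rule does not take, so the complex III class lacks it. All 11 were measured and 0 were called in limma, with 1, 0 and 0 at an unadjusted p under 0.05. Of these, Etfdh, which feeds electrons from fatty acid oxidation to ubiquinone, differed by -0.16 (adjusted p = 0.347) and Etfa, its electron donor, by 0.15 (adjusted p = 0.409) between floxed and wild-type. Of 32 measured assembly factors with other names, 0 were called, with 2, 2 and 1 at an unadjusted p under 0.05. Coa5 and Coa6, which help to build complex IV, differed by 0.18 (adjusted p = 0.294) and -0.19 (adjusted p = 0.314) between floxed and wild-type. Of 8 mitochondrial carriers and channels, 0 were called, with 1, 0 and 1 at an unadjusted p under 0.05. These were carriers of the inner membrane with Ucp3, and Vdac1, Vdac2 and Vdac3 of the outer membrane. Slc25a4, which exchanges ADP for ATP, differed by 0.37 between floxed and wild-type (adjusted p = 0.205).

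Of 14 regulators of mitochondrial biogenesis, 1 was called between floxed and wild-type, beside 0.652% of all probe sets. At an unadjusted p under 0.05 were 3, 2 and 1 in the 3 comparisons, beside 12.8%, 8.11% and 6.32%. Ppargc1a, the coactivator PGC-1 alpha that raises transcription of respiratory genes in muscle, liver and brown fat, read 7.52, 7.67 and 7.80 in wild-type, 8.19, 8.16 and 8.17 in floxed and 8.10, 7.84, 7.93 and 7.90 in delta cells. The floxed arrays lay above all others. The floxed minus wild-type difference was 0.51 (SE 0.09, adjusted p = 0.0273, limma), while delta differed by 0.28 from wild-type (adjusted p = 0.326) and by -0.23 from floxed (adjusted p = 0.731). With the sex pattern as a covariate, which rests on delta 1 alone, the difference was 0.30 (adjusted p = 0.686) without a call. The call was also lost with the mean of the T cell markers as covariate, where it was 0.48 (adjusted p = 0.209). The same held without wild-type 1 or 2 or any of the floxed arrays, with differences from 0.44 to 0.52 and adjusted p from 0.0696 to 0.103. The difference stayed at 0.51 with adjustment over every probe set (adjusted p = 0.0933) and with the replicate number as a block (adjusted p = 0.0516), and the call was lost there too.

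Other regulators of the members did not pass. Tfb2m, a factor of mitochondrial transcription, was at 9.85 ± 0.21 (SD, n = 3) in wild-type and 9.29 ± 0.33 (n = 3) in floxed cells, a difference of -0.57 (adjusted p = 0.122, limma). Myc, which drives growth and mitochondrial genes, was 10.25 ± 0.38 (n = 3) in wild-type and 11.15 ± 0.50 (n = 4) in delta cells, a difference of 0.90 (adjusted p = 0.284). It was also higher in floxed than in wild-type cells, by 0.63 (adjusted p = 0.33, limma). Delta differed from floxed by 0.27, with overlap. The factors that bind the motifs described next were near no change between floxed and wild-type. The differences were -0.06 for Nrf1, 0.05 for Gabpa and -0.05 for Yy1, and 0.01 for Tfam, which packs mitochondrial DNA.

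The promoters of the members were searched for the motifs of factors known for respiratory genes. RefSeq (GRCm38.p6) gave 75 promoters for 70 of the 85 genes, each from 250 bases before to 50 after the start, and 27 of them held at least 1 motif on either strand. The ETS motif of GABPA, CCGGAAG, was in 16 (21.3%), beside 11.6% of 21263 promoters of protein-coding genes and 8.86% of all 32851. The NRF1 motif, whose 10 letters are the capitals in the Ndufa11 sequence, was in 7 (9.33%), beside 1.33% and 0.971%, and the YY1 motif AAGATGGCG was in 7 (9.33%), beside 1.83% and 1.4%. No match of a motif overlapped a match of another. The median GC content was 57.3% in the members and 56.3% in protein-coding genes. A match is a description of the letters and does not show binding.

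A promoter with a match from each complex, picked as an example, shows where the motifs lie, as the 150 bases before the start in lower case with the motif, on either strand, in capitals. The Ndufa11 stretch is at chr17:56717612-56717761 on the plus strand, with an NRF1 match whose first base is 60 before the start. Uqcrh is at chr4:116075071-116075220 and Cox6a1 at chr5:115348959-115349108, both on the minus strand, with an ETS match 10 and 16 bases before the start. Atp5j is at chr16:84834977-84835126 on the minus strand, with a YY1 match 88 and an ETS match 61 bases before the start.
Ndufa11: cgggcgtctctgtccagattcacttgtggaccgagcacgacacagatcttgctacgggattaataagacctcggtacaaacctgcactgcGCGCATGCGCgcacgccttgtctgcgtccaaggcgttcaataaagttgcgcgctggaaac
Uqcrh: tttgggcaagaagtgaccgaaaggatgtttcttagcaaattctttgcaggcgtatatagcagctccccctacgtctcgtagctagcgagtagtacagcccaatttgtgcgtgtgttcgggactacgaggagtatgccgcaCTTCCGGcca
Cox6a1: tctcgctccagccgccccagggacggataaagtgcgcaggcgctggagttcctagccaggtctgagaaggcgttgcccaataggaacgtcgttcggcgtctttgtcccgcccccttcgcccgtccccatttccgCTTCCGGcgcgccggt
Atp5j: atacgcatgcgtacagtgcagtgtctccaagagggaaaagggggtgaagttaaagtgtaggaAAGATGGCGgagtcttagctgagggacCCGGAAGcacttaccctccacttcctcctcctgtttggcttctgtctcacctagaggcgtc
In the delta minus floxed comparison these genes differed by -0.06 and -0.10 (the 2 probe sets of Ndufa11, an accessory subunit of complex I), -0.08 (Uqcrh), -0.08 (Cox6a1) and -0.07 (Atp5j, subunit F6 of the stalk), all within the same small range as the rest.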

How the data were processed

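The values are the RMA intensity per probe set that the authors deposited on a linear scale, per the submitters' processing notes for the method. RMA corrects background, normalizes between arrays and summarises probes. The sources used here name neither its version nor the genome build. Log2 was taken, and the 21640 of 34760 probe sets with exactly 1 symbol in the platform annotation were fitted with limma 3.58.1 in R 4.3.3 (lmFit, 3 group means over all 10 arrays, eBayes), two-sided, with Benjamini-Hochberg adjustment at 0.05. Left out were 6 probe sets that share a member symbol with another gene (Cox7c, Ndufs5 and Ndufb4 with near-identical copies). The number of arrays limits the precision. Pairs of arrays correlated at 0.9931 to 0.9965 within groups and 0.9892 to 0.9958 between groups, and none held identical values.

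Named members were all past the threshold, the smallest p on each side in each class and comparison, X-linked members, tissue isoforms with their common partners and subunit c genes. The other members given beside them were chosen for their role or after their values were seen. The members and gene lists were chosen with earlier results of these data known. The fit was tested on simulated data. Alternatives were other normalizations, filters, probe set choices, eBayes options, array weights, covariates, the replicate number as a block and the omission of each array in turn.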

Additional observations from a re-analysis of the deposited data

Results flagged for a closer look

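Among the 4 delta arrays, 3 of the 51 probe sets checked had 1 array that stood apart. Its gap to the nearest other, divided by the range of the 4 arrays, exceeded Dixon's 95% critical value of 0.829. That is a limit that chance passes in about 1 of 20 groups. The Ndufa1 level on delta 3 was 7.91, while the other delta arrays lay between 7.40 and 7.49. The dim Atp5h probe set 10359297 read 4.63 on delta 2 and 4.44 to 4.47 on the others. Cox4i2, the lung form of subunit 4, read 7.29 on delta 2 and 7.34 to 7.35 on the others.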

How the results depend on the processing

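Under 22 alternatives, 12 of processing and 10 that leave out an array, 0 of the 109 probe sets were called in each comparison, with 2 to 12, 1 to 13 and 0 to 9 at an unadjusted p under 0.05 (floxed with wild-type, then delta with wild-type, then delta with floxed). The median over the members ranged from -0.02 to 0.08, from -0.10 to 0.00 and from -0.12 to -0.05. Settings that keep the group means, such as the eBayes options or the omission of an array of the third group, cannot move these medians. Calls among all probe sets were 141, 0 and 1 and ranged from 2 to 278, 0 to 16 and 1 to 12. The median of the complex I assembly factors was 0.078 between floxed and wild-type when T cell markers served as covariate, and -0.090 between delta and floxed with that covariate and -0.091 with the sex pattern; without single arrays the former ran from -0.11 (without wild-type 2) to 0.040 (without floxed 1). The complex III median ran from -0.081 (without wild-type 2) to 0.043 (without wild-type 3) between floxed and wild-type without single arrays and was -0.082 between delta and floxed with 1 probe set per gene. The ATP synthase median was 0.14 between floxed and wild-type with the sex pattern as a covariate. Values with that covariate rest on delta 1, the 1 male delta array, since no wild-type and every floxed array was male. Between floxed and wild-type, leaving out single arrays moved the median from -0.022 to 0.085 for complex I, from -0.017 to 0.050 for complex IV and from -0.0062 to 0.098 for ATP synthase. Ndufaf1 between delta and floxed was -0.11 and became -0.39 with the T cell covariate. The cause was not tested. Replicate numbers do not pair the arrays: same-number deviations correlated at -0.0825 to 0.119, above 0.1 in 1 of 9 pairs, and 5 of 18 best matches were to the own number. With the replicate number as a block, 0 members and 211, 7 and 12 of all probe sets were called. Delta 4 is alone in its block, so the delta medians of this fit equal those without delta 4. The number of arrays and dim signals (2 members below a log2 of 6) limit these values.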
